A study of Coturnix japonica with 54 samples.

Results

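Prolactin (PRL), its receptor (PRLR) and the pituitary transcription factor POU1F1 were followed in the pituitary gland of male Japanese quail (Coturnix japonica) through a simulated annual cycle of day length. They are 3 of the 16448 genes in the table of estimated counts, and they were taken by gene symbol, so no measured value chose them. The study held males first on a summer-like long day of 16 h of light, lowered the day length in steps of 2 h to 8 h and raised it again to 16 h, with 2 weeks at each step. Pituitaries of 6 birds were collected at each of 9 photoperiods, whose names give the hours of light, followed by a during the autumn-like shortening of the day (16La, 14La, 12La, 10La), by no letter on the shortest day (8L) and by v during the spring-like lengthening (10Lv, 12Lv, 14Lv, 16Lv). All birds were males that had passed through the same starting photoperiod, the labels name no other treatment, and the birds taken at each step were picked pseudo-randomly by body mass. The labels name no genotype, strain or age. Each bird gave 1 long-read library of polyadenylated RNA, so the replicate is the bird. The birds sampled at one day length on both sides of the cycle differ in the direction of change and in the time since the start, and these cannot be told apart.

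Prolactin is a peptide hormone made by the lactotrophs of the anterior pituitary. In birds it is best known for incubation behaviour and crop milk, and in many seasonal species its release follows day length, with vasoactive intestinal peptide (VIP) from the hypothalamus as the main releasing factor. POU1F1, also called Pit-1, is a POU-homeodomain factor that in mammals is needed for lactotrophs, somatotrophs and thyrotrophs, where it activates the prolactin, growth hormone and thyrotropin beta genes. PRLR is a single-pass receptor of the class I cytokine receptor family, which in mammals signals mainly through the kinase JAK2 and STAT5 factors.

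Libraries were shallow and uneven. Counting each gene by its most abundant transcript, library totals ranged from 2812 to 77709 counts, with a median of 20420, and between 544 and 9753 genes had a count. Mean totals were 33397 counts at 16La, 33901 at 14La and 34672 at 12La, and lowest at 16Lv, with 13457. In 9 of the 54 libraries fewer than 2000 genes were detected, 2 of them each at 12Lv and 16Lv, 1 each at 12La, 10La, 8L, 10Lv and 14Lv, and none at 16La or 14La. The bird with the highest number within its photoperiod was a low-detection library in all 7 photoperiods from 12La to 16Lv, and not at 16La or 14La. Levels below are CPM, the count as a share of the library's largest-transcript total, on the usual scale of that unit. They are compared within a gene only, since transcript lengths were not used. In whole pituitaries, fewer cells of a type and less RNA per cell cannot be told apart.

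PRL was counted in every bird, with 24 to 3595 counts on its single transcript row. Its mean was highest at 14La, 16La and 14Lv and lowest at 8L, 10Lv and 10La, while 16Lv, also a day of 16 h, stood between. At 16La the lowest, median and highest bird had 18162, 35954 and 67140 CPM, and at 14La 25055, 52890 and 56630 CPM. At 12La the birds spread widely, with 3932, 17511 and 46262 CPM. At 10La the corresponding values were 2065, 9901 and 16230 CPM, and at 8L 2983, 7110 and 10636 CPM. Medians were lower at each step from 14La to 8L, and every bird at 8L was below every bird at 16La.

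On the spring side PRL stood at 3669, 6882 and 13792 CPM at 10Lv, where 1 bird was above the highest 8L bird. At 12Lv the lowest, median and highest bird had 4304, 25080 and 33078 CPM. At 14Lv the values were 9645, 36892 and 48434 CPM. At 16Lv the birds split, with 8662, 13628 and 49431 CPM, so that the median there was lower than at 12Lv and 14Lv. The highest 16Lv bird was also a library with fewer than 2000 genes detected, in which PRL rested on 139 counts of 2812.

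**Figure D1:**
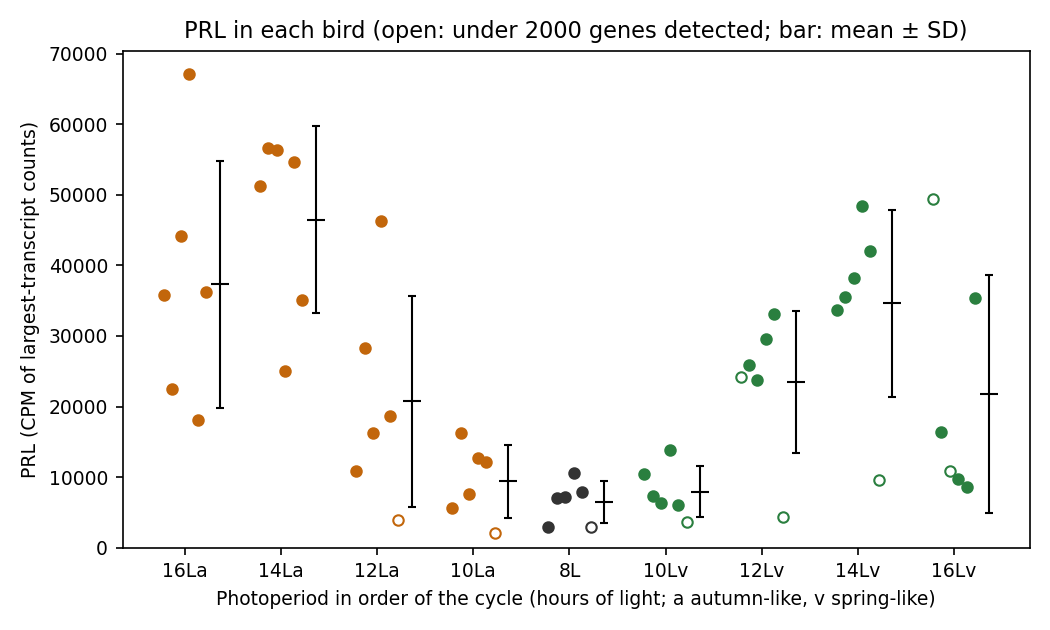
PRL in CPM (y axis) for each of the 54 birds, by photoperiod in the order of the cycle (x axis). Points are birds, orange for autumn-like, black for 8L and green for spring-like photoperiods, open where fewer than 2000 genes were detected, and bars are the mean ± SD of 6 birds. The mean falls from 46471 CPM at 14La to 6452 CPM at 8L and is 34602 CPM at 14Lv and 21754 CPM at 16Lv.

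Ordered by the mean, PRL was 46471 ± 13239 CPM (SD, n = 6) at 14La, 37311 ± 17468 CPM at 16La, 34602 ± 13307 CPM at 14Lv, 23478 ± 10035 CPM at 12Lv, 21754 ± 16814 CPM at 16Lv and 20754 ± 14910 CPM at 12La. Below these came 9403 ± 5210 CPM at 10La, 7959 ± 3612 at 10Lv and 6452 ± 2984 at 8L. The highest mean was 7.20 times the lowest, and 6.50 times without the 9 low-detection libraries, when 14Lv stood above 16La and 12La above 16Lv. No neighbours in this order differed beyond the spread between birds, with exact two-sided permutation p-values adjusted over the 8 neighbouring pairs of 0.857 to 0.890. The order came from these same values, so neighbours are close by construction. On CPM scaled by trimmed mean of M-values (TMM) factors, 12La stood above 12Lv and 16Lv, and the order of the other photoperiods was the same.

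PRL differed among the 9 photoperiods in the model fitted across all 1460 tested genes (edgeR quasi-likelihood F test, Benjamini-Hochberg adjusted p = 3.94e-11), where 1.3% of tested genes were called. From 16La to 8L it fell by 2.65 on the log2 scale (SE 0.46, 95% interval -3.54 to -1.75, edgeR adjusted p = 1.46e-05), which is 6.26-fold (interval 3.36 to 11.7). In this comparison 0.479% of tested genes were called and 0.548% had groups that did not overlap in CPM. The exact permutation test on log2(CPM + 1) gave 0.0022, the smallest p that 6 birds against 6 allow, and 0.0303 after adjustment over the 14 pairs of photoperiods. Over all birds, PRL rose by 0.30 log2 units for each added hour of light (SE 0.04, interval 0.22 to 0.38, edgeR adjusted p = 9.54e-10), a comparison in which 0.685% of genes were called.

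The recovery from 8L to 16Lv was less certain. The fitted rise was 1.36 (log2, SE 0.44, interval 0.49 to 2.22), and 4 of 6 16Lv birds exceeded the highest 8L bird. It did not pass in edgeR (adjusted p = 0.326), where 0.205% of genes were called. The exact permutation test on log2(CPM + 1) gave a difference of 1.58 and an adjusted p of 0.0455, which became 0.0794 without the low-detection libraries. With DESeq2-type scaling in edgeR the rise was 1.90 and passed (adjusted p = 0.0129). Of 14 other settings, 4 passed. None of the 54 fits with 1 bird left out passed (edgeR adjusted p from 0.236 to 0.985).

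Comparing the same day length on both sides of the cycle, PRL was not called at any of the 4 lengths in edgeR, where 0.0685% of tested genes were called at 16 h and at 14 h, 0.479% at 12 h and 0 at 10 h. The spring value minus the autumn value was -1.29 at 16 h (log2, SE 0.44, adjusted p = 0.551), -0.78 at 14 h (SE 0.43, adjusted p = 0.985), -0.06 at 12 h (SE 0.43, adjusted p = 0.999) and -0.32 at 10 h (SE 0.43). The edgeR interval at 16 h ran from -2.15 to -0.43, with an unadjusted p of 0.0034. The exact permutation test at 16 h gave a difference of -0.98 on log2(CPM + 1), with p = 0.0887 and 0.248 after adjustment. The TMM scaling places the median of all tested genes at -0.27 in this comparison, at -0.23 for 16Lv against 8L and at -0.21 at 12 h, against -0.01, -0.05 and -0.01 when library totals alone were used. Relative to that median, PRL differed by -1.01 at 16 h, by 1.59 between 16Lv and 8L and by 0.15 at 12 h. The slope on light hours was lower by 0.15 per hour in spring than in autumn (SE 0.05, unadjusted p = 0.0045), a difference that did not pass after adjustment (edgeR adjusted p = 0.660).

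Single steps of 2 h did not pass for PRL in edgeR. The largest fitted steps were the fall from 14La to 12La (log2 -1.30, SE 0.43, adjusted p = 0.250, 0.479% of genes called), the fall from 12La to 10La (-1.15, SE 0.43, adjusted p = 0.915) and the rise from 10Lv to 12Lv (1.41, SE 0.44, adjusted p = 0.456, 0.205% of genes called). Of 54 fits with 1 bird left out, the fall at 12La passed in 1, and the edgeR adjusted p ran up to 0.757. That fit left out replicate 4 of 12La, the bird with 46262 CPM (log2 -1.70, edgeR adjusted p = 0.0460). Leaving out the highest bird of the lower group enlarges the fall, so this pass is no further support. The rise at 12Lv passed in edgeR without the low-detection libraries (1.75, adjusted p = 0.0290). PRL then stood at 28079 ± 4107 CPM (SD, n = 4) at 12Lv. The libraries left out include the lowest bird of 12Lv, at 4304 CPM, and the lowest of 10Lv, at 3669 CPM. The exact permutation test of this rise did not pass, with an adjusted p of 0.0556 without these libraries and 0.0833 with all birds. The last step, from 14Lv to 16Lv, was a fitted fall on a lengthening day (log2 -0.93, SE 0.43, interval -1.78 to -0.07). Its edgeR p was 0.0334 unadjusted and 0.9999 adjusted, with 0 genes called. The exact permutation test gave -0.85 (adjusted p = 0.372), and -1.40 (p = 0.0159, adjusted 0.0556) without the low-detection libraries. The first steps from either end were small, 0.41 from 16La to 14La and 0.30 from 8L to 10Lv, each with an SE of 0.43. At 12La, the 5 fibroblast markers summed to a mean of 931 CPM against 245 to 391 elsewhere, and to 583 CPM without the highest bird, replicate 1, which had 2672 CPM. The markers of neural lobe and glia in the table, 4 of 7, summed to 941 CPM against 37.2 to 284 elsewhere, and to 48.9 CPM without replicate 5, which alone had 5401 CPM. Their part in the PRL level at 12La was not tested.

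**Figure D2:**
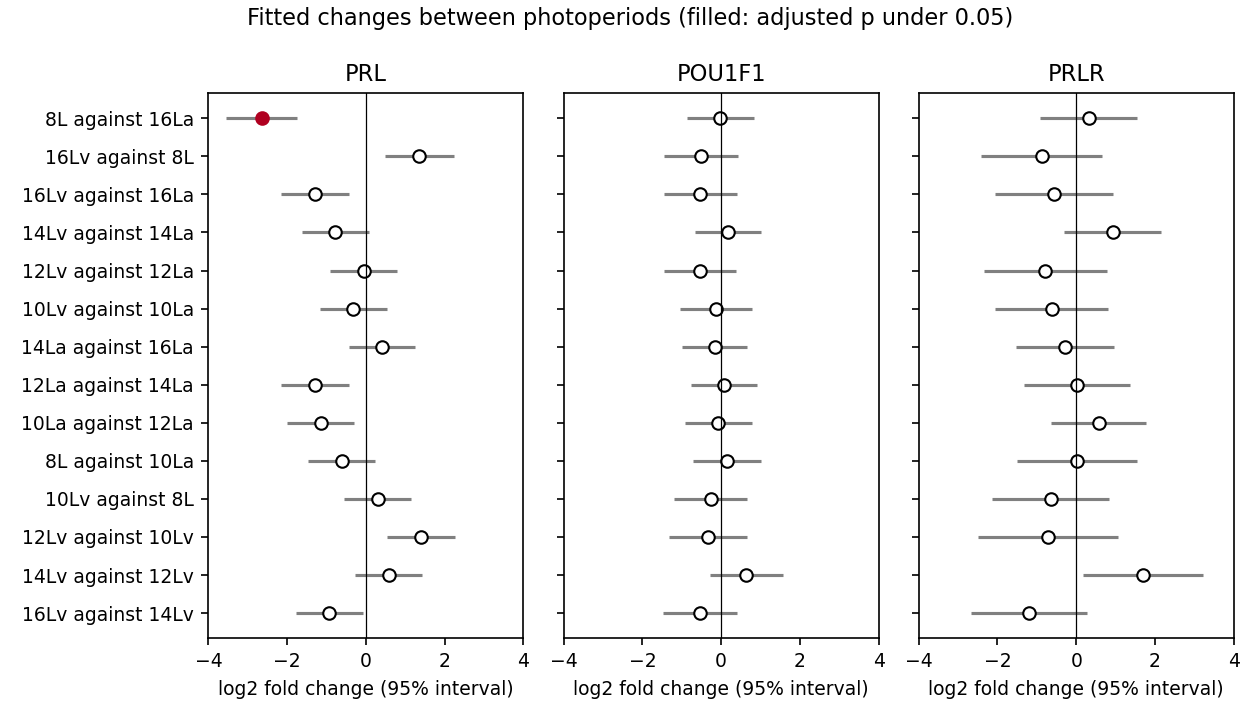
Log2 fold changes (x axis) with 95% intervals from the edgeR model for PRL, POU1F1 and PRLR in the 14 pairs of photoperiods (y axis, first against second). Filled points have an adjusted p under 0.05, and the fall of PRL from 16La to 8L, -2.65, is the single filled point.

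The glycoprotein hormone alpha subunit CGA, which gonadotropins and thyrotropin share, served as a second hormone transcript counted in every bird, so that the ratio of PRL to CGA does not depend on the library total. CGA averaged 2229 CPM at 12La and 16471 CPM at 12Lv. Its own change, 12Lv against 12La, was 2.68 (log2, SE 0.42, edgeR adjusted p = 6.00e-07), where 0.479% of tested genes were called. The log2 ratio of PRL to CGA was 2.90 ± 1.51 (SD, n = 6) at 12La and 0.37 ± 1.12 at 12Lv, a difference of -2.53 (exact two-sided permutation p = 0.0108, 0.0390 adjusted over the 4 day lengths). Without the low-detection libraries it was -2.57 (exact permutation, adjusted p = 0.0317). At 10 h it was 1.89 ± 0.91 at 10La and 0.27 ± 0.87 at 10Lv, a difference of -1.62 (exact permutation p = 0.0195, adjusted 0.0390), with an adjusted p of 0.0794 without the low-detection libraries. At 14 h the difference was -0.22 and at 16 h -0.40, each with an adjusted exact permutation p of 0.675. Without the low-detection libraries these were 0.05 and -1.10 (adjusted exact permutation p = 0.922 and 0.190). At 12 h the 2 hormones stood in a different ratio on the 2 sides of the cycle, while PRL itself averaged 20754 and 23478 CPM. The difference in CGA enters this ratio, and CGA was chosen with earlier results of these data known. The ratio is therefore no separate result about PRL.

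**Figure D3:**
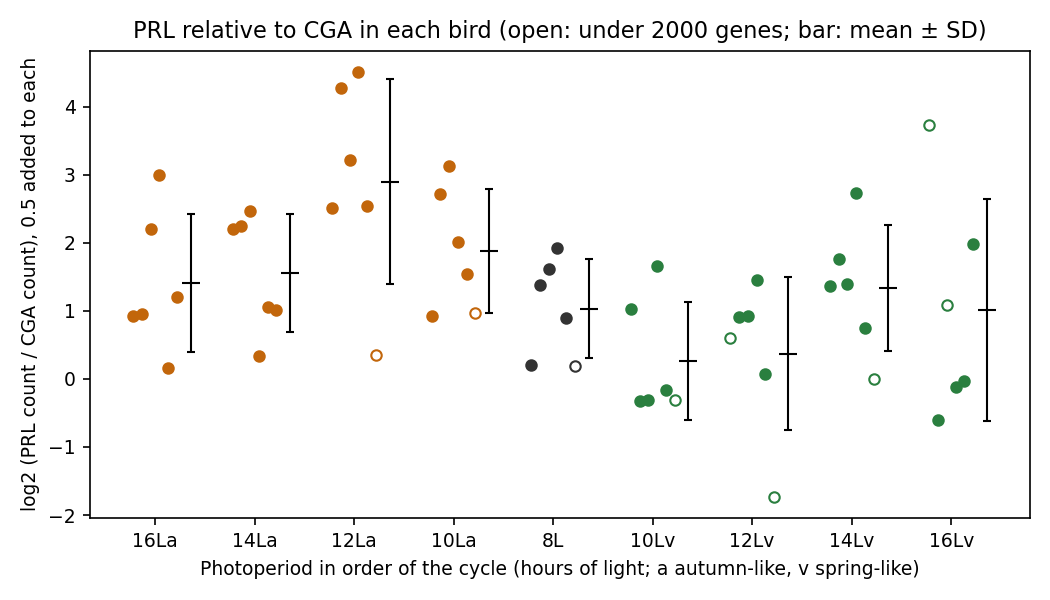
Log2 ratio of PRL to CGA counts, with 0.5 added to each (y axis), for each bird by photoperiod in the order of the cycle (x axis). Points are birds, open where fewer than 2000 genes were detected, and bars are the mean ± SD of 6 birds. The mean is 2.90 at 12La and 0.37 at 12Lv.

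POU1F1 was counted on 2 transcript rows that never differed by more than 5 counts, so its values were taken from the larger. It had 772 counts in all and was found in 48 of 54 birds. Its level did not follow that of PRL across the cycle. The lowest, median and highest bird had 405, 607 and 905 CPM at 16La, 234, 526 and 940 at 14La, 0, 620 and 708 at 12La, and 0, 522 and 960 at 10La. At 8L, where PRL was lowest, POU1F1 stood at 0, 662 and 1180 CPM. On the spring side the 10Lv birds had 0, 596 and 789 CPM, those of 12Lv 207, 424 and 559, those of 14Lv 0, 574 and 1285, and those of 16Lv 0, 420 and 1184. The groups overlapped in all 14 pairs of photoperiods, for POU1F1 and PRLR alike. Groups did not overlap for 0.548% of tested genes in 8L against 16La and 12La against 14La, 0.411% in 12Lv against 10Lv, 0.342% in 16Lv against 16La, and 0.205%, 0.137%, 0.0685% or 0 in the other pairs. Each of the 6 birds at 0 was a low-detection library, where 3 counts would be 183 to 706 CPM.

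The mean of POU1F1 ran from 632 ± 220 CPM (SD, n = 6) at 16La to 409 ± 140 at 12Lv, a ratio of 1.55. Without the low-detection libraries the highest mean was 745 CPM at 8L and the lowest 484 CPM at 12Lv. From 16La to 8L the fitted change was -0.02 (log2, SE 0.43, interval -0.88 to 0.83), and the slope on light hours was -0.01 (interval -0.09 to 0.07). POU1F1 was called in none of the 17 edgeR comparisons, where 0 to 1.3% of tested genes were called. It had an unadjusted edgeR p under 0.05 in none of them, and was called in none by DESeq2 or limma. The interval for 8L against 16La does not reach the 2.65 by which PRL fell.

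**Figure D4:**
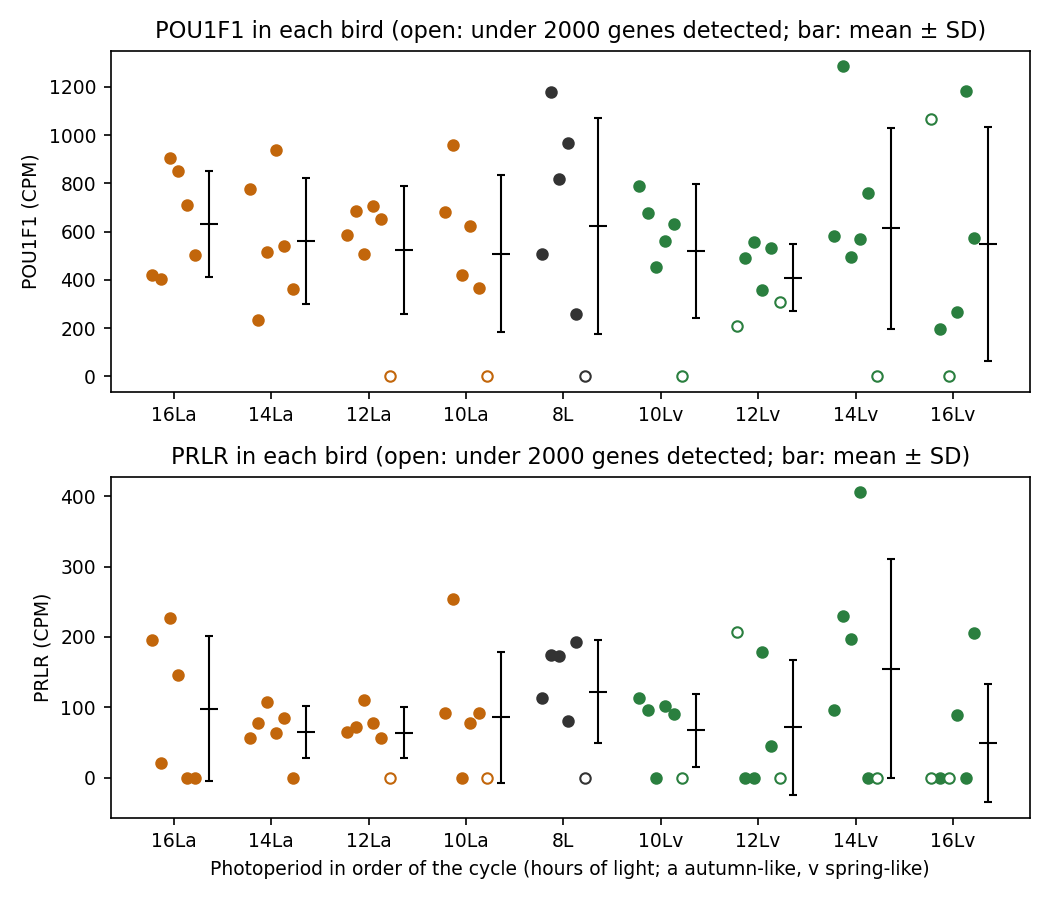
POU1F1 (upper panel) and PRLR (lower panel) in CPM (y axes) for each bird, by photoperiod in the order of the cycle (x axis). Points are birds, open where fewer than 2000 genes were detected, and bars are the mean ± SD of 6 birds. The values at 0 for POU1F1 are all open points, and PRLR is at 0 in 18 birds.

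Set against POU1F1 in the same bird, the log2 ratio of PRL to POU1F1 was 5.79 ± 0.64 (SD, n = 6) at 16La and 3.83 ± 1.60 at 8L. The difference of -1.96 did not pass (exact two-sided permutation p = 0.0303, 0.0779 adjusted over 4 pairs). It was -2.52 without the low-detection libraries (adjusted exact permutation p = 0.0260), in one of which, at 8L, POU1F1 is at 0. This ratio was chosen after the values were seen.

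Across all 54 birds PRL and POU1F1, as log2(CPM + 1), had a Pearson r of 0.50 (permutation p = 0.00011, adjusted 0.00022 over 2 relations) and a Spearman rho of 0.27 (permutation p = 0.0459, adjusted 0.0738). Without the 2 birds farthest from the POU1F1 median, r was 0.38. Within photoperiods, r was 0.62. The relation rests on the low-detection libraries, since in the other 45 birds r was -0.02 (permutation p = 0.906), rho was -0.04, and r within photoperiods was 0.07. POU1F1 and PRL each had higher values in birds with more genes detected, with r of 0.76 and 0.49. In 8 of 9 low-detection libraries POU1F1 was below every bird of its photoperiod outside these 9, and PRL in 6 of 9.

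**Figure D5:**
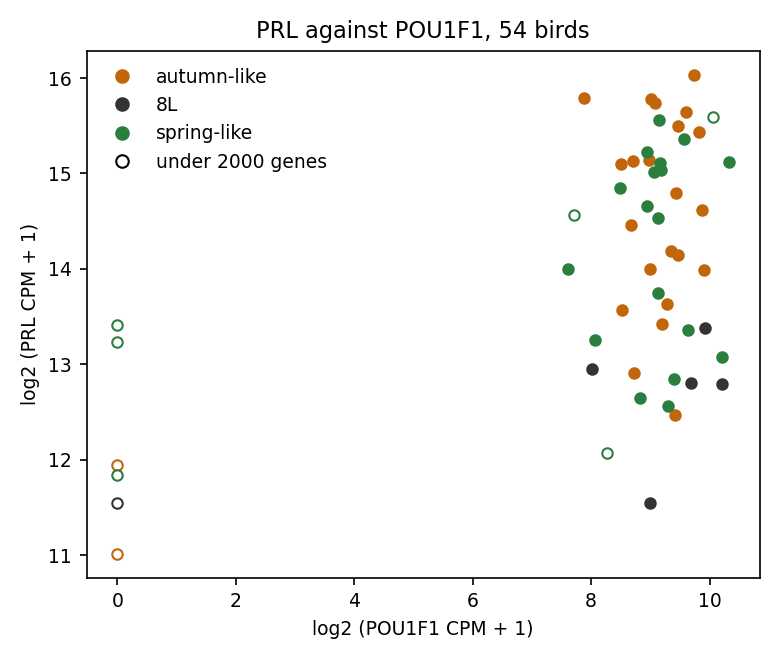
PRL (y axis) against POU1F1 (x axis), both as log2(CPM + 1), in 54 birds. Orange, black and green points are autumn-like, 8L and spring-like photoperiods, and open points are birds with fewer than 2000 genes detected. The 6 birds with POU1F1 at 0 lie at the left and are all open, and among the 45 filled points r is -0.02.

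PRLR was near the detection limit, with 121 counts in all, at most 14 in a bird, and none in 18 of 54 birds. It had 8 transcript rows, of which the most abundant held 119 counts and the next 36. The lowest, median and highest bird had 0, 83.0 and 226 CPM at 16La, 0, 142 and 193 at 8L, 0, 147 and 406 at 14Lv, and 0, 0 and 205 at 16Lv. The means ran from 155 ± 156 CPM (SD, n = 6) at 14Lv to 48.96 ± 84.2 at 16Lv, and without the low-detection libraries from 186 CPM at 14Lv to 55.7 CPM at 12Lv. The SD between birds ran from 36.2 CPM at 12La to 156 CPM at 14Lv, and each photoperiod had at least 1 bird at 0.

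PRLR was called in none of the 17 edgeR comparisons, where 0 to 1.3% of tested genes were called. It was called in none by DESeq2 or limma either. It had an unadjusted p under 0.05 in 1 edgeR comparison, the step from 12Lv to 14Lv (log2 1.69, SE 0.77, unadjusted p = 0.0288, adjusted p = 0.999). For 8L against 16La its change was 0.31 (SE 0.62, interval -0.91 to 1.53). The fall of 2.65 seen in PRL lies outside this interval, and a 2-fold rise lies inside it. PRL and PRLR had an r of 0.30 over 54 birds (permutation p = 0.0268, also after adjustment over the 2 relations), a rho of 0.25 (permutation p = 0.0738) and an r of 0.34 without the 2 birds farthest from the PRLR median. Their r within photoperiods was 0.54. Over the 45 birds with 2000 or more genes, r was 0.05 (permutation p = 0.726), and r within photoperiods was 0.37. Receptors on cells outside the pituitary are not measured here.

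The genes around these 3 were read from lists chosen with earlier results of these data known. Among genes of the POU1F1 lineage and its targets, 13 of 17 were in the table and 6 were tested. They included TSHB (the thyrotropin beta subunit), GHRHR (the receptor for growth hormone releasing hormone), LHX3 and PITX1 (homeodomain factors of the early pituitary) and SIX3. None was called in any of the 17 comparisons in edgeR, nor by DESeq2 or limma. In edgeR, 0 to 1.3% of all tested genes were called in these comparisons. Each of the 6 genes was tested in all 17 comparisons in edgeR. Of these gene comparisons, 6 had an unadjusted p under 0.05, where chance alone gives about 1 in 20. The median change of the 6 genes from 16La to 8L was -0.01 (log2), against -0.04 for all tested genes. GHRHR averaged 365 CPM at 16La, 392 CPM at 8L and 145 CPM at 16Lv (16Lv against 16La log2 -1.44, SE 0.52, edgeR adjusted p = 0.651). TSHB had a slope on light hours of -0.15 (SE 0.06, edgeR adjusted p = 0.471).

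Of the genes that act on the lactotroph, 19 of 22 were in the table and 2 were tested, the estrogen receptor ESR1 and the thyroid hormone receptor THRB. Neither was called in edgeR, where 0 to 1.3% of tested genes were called, nor in DESeq2 or limma. Of 34 gene comparisons in edgeR, 1 had an unadjusted p under 0.05. VIP had 3 counts in 1 bird. VIPR1, a receptor for VIP, had 60 counts in 25 birds, and the dopamine receptor DRD2, which in mammals restrains prolactin release, had 28 counts in 21 birds, too few to test. For signalling downstream of PRLR, 21 of 25 genes were in the table and 3 were tested, among them the kinase subunit PIK3R1 and the cyclophilin PPIB. None was called by any of the tools, beside the same 0 to 1.3% of tested genes in edgeR. Of 51 gene comparisons in edgeR, 1 had an unadjusted p under 0.05. JAK2 had 11 counts in 7 birds. Growth hormone, STAT5A and STAT5B were not analysed here.

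Among 3176 genes counted in at least 27 birds, those whose CPM ranked most like that of PRL over the 54 birds included CHGB (Spearman rho 0.73, and 0.62 over 45 birds), PPP1R1C (0.67 and 0.66), HSP90B1 (0.63 and 0.54) and PDIA3 (0.62 and 0.49), where the median rho of all candidates was 0.14. CHGB encodes chromogranin B of secretory granules, and HSP90B1 and PDIA3 encode folding proteins of the endoplasmic reticulum. The birds share their library depth in all of these, and the genes were chosen for their likeness, so no p is given for the likeness. CHGB averaged 2216 ± 858 CPM (SD, n = 6) at 14La, its highest mean, and 897 ± 606 at 10Lv, its lowest. It was not called among photoperiods (edgeR adjusted p = 0.999), nor were HSP90B1 (0.599) and PDIA3 (0.905). PPP1R1C, with 74 counts in all, was called (edgeR adjusted p = 0.0343), as were 1.3% of tested genes. These genes were chosen for likeness to PRL, which itself differed among photoperiods, so a call among them is no separate result.

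Most like POU1F1 were SON (rho 0.67), CHGA (0.63), CCNI (0.62), HNRNPA2B1 (0.62) and ARHGAP17 (0.61), with a median over candidates of 0.25. Over the 45 birds with 2000 or more genes the same rhos were between 0.42 and 0.57. Those most like PRLR included AKAP13 (0.65, and 0.51 over the 45 birds), CSRNP3 (0.63 and 0.58), PCLO (0.62 and 0.53) and ARFGEF3 (0.60 and 0.48). The median over candidates was 0.21 over 54 birds.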

How the data were processed

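The authors deposited a table of estimated counts for 40282 transcripts and a gene-level table called CPM, which behaves as a normalised signal because its columns do not add up to the same total. The submitters' processing notes list minimap2 2.17, Salmon 0.14.2 and also edgeR 3.24.3 without saying what each did. The genome build is not given in the sources, so no coordinates are printed. Per the labels' protocols, RNA was extracted with a QIAGEN kit, and libraries were barcoded with a direct cDNA kit from Oxford Nanopore. Where transcripts of a gene hold near-equal counts, as for POU1F1, a sum may enter reads more than once, so each gene was counted by its largest transcript, and rounded. Floors (3 counts in a library) reflect counting error alone, and the 95% intervals of log2 changes come from the edgeR fit and include the spread between birds.

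Counts were tested with edgeR 4.0.16 (TMM scaling, robust quasi-likelihood F test, minimum count 3 and minimum total 9) in 1 model of all 54 birds with a mean per photoperiod and 45 residual degrees of freedom, with Benjamini-Hochberg adjustment over 1460 genes and a threshold of 0.05. Single comparisons used exact two-sided permutation tests of 6 birds against 6 (924 arrangements), and correlations used 1e+05 permutations. On 3 simulated data sets for 8L against 16La with 1420 to 1446 genes tested, the model called 53.8 to 70.9% of 4-fold and 89.8 to 94.2% of 16-fold changes, with 1 to 8 false calls. The simulated counts followed a fitted model of the spread. A much larger share of genes was changed in them than the 0.479% called in the real comparison, which makes the adjustment milder. These percentages may therefore be too high for the real data. Alternatives included DESeq2 1.42.0, limma 3.58.1 and birds left out. The limma fit used log2(CPM + 1) of the authors' deposited CPM, for 3182 genes with a value in at least 27 birds. It thus differs in input and filter as well as in tool. There the median of all tested genes was -1.87 for 16Lv against 16La. The members, lists, comparison hormone and tests were chosen with earlier results of these data known. Genes most like each member were the 5 named genes with the highest rank correlation, and some genes of these and of the lists are not reported here. Nothing in the labels says more about how birds were housed together, and p-values set differences against the spread between birds. In edgeR that spread is pooled over photoperiods and drawn in part from other genes. PRL thus had 247 total degrees of freedom, against the 45 residual ones.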

Additional observations from a re-analysis of the deposited data

Results flagged for a closer look

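Of 27 groups of 6 birds (3 genes at 9 photoperiods), 3 held a bird that stood apart from the others, where chance alone gives about 1 in 20. PRL at 12Lv was 4304 CPM in replicate 6, a library with 958 genes detected, and the next lowest bird had 23756 CPM. POU1F1 at 12La was 0 CPM in replicate 6, a library with 819 genes detected, and the next lowest bird had 508 CPM. PRLR at 10La was 254 CPM in replicate 2, and the next highest bird had 91.2 CPM. The former rests on 14 counts in the 10La library with the highest total, 55208, and the latter on 2 counts.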

How the results depend on the processing

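The fall of PRL from 16La to 8L, its slope on light hours and its difference among photoperiods passed under all 14, 13 and 13 other settings and with each of the 54 birds left out. PRLR was not tested with a minimum count of 10, nor in most fits of only 2 groups. Testing the same genes without the low-detection libraries was chosen after seeing the data. So was a fit with the rank of a bird's number within its photoperiod as a block. Birds of one rank shared no stated source, and their deviations from the photoperiod means had r of -0.05 to 0.16, yet 7 of 9 birds of rank 6 were low-detection libraries. With this replicate block PRL also passed for 16Lv against 8L (1.34, edgeR adjusted p = 0.0027), 16Lv against 16La (-1.44, 0.0012), 12La against 14La (-1.59, 2.12e-05), 12Lv against 10Lv (1.35, 0.0035) and in the difference of slopes (-0.18, 0.00043), and genes called among photoperiods numbered 39 in place of 19. POU1F1 and PRLR were called in no comparison with it. For 16Lv against 8L, PRL passed with DESeq2-type scaling (1.90), a minimum count of 10 (1.77) and log2 library total as a covariate (1.93), and its exact permutation test no longer passed with summed counts (1.63), TMM-scaled CPM (1.24) or without low-detection libraries (1.17). For 12Lv against 10Lv PRL passed in edgeR without low-detection libraries (1.75, and 1.71 with the same genes tested), but not in the exact permutation test (1.73). PRL at 12 h turned to 0.55 with the covariate. With 1 bird left out it ran from -0.21 to 0.39, and 12La against 14La from -1.70 to -1.12. The ratio of PRL to CGA at 10 h no longer passed without low-detection libraries (-1.68), nor without any 1 of 7 birds, and ran from -1.90 to -1.37 with 1 bird left out.

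The ratio of PRL to POU1F1 passed with 5 counts added, for 8L against 16La (-2.53), 16Lv against 8L (1.23), 16Lv against 16La (-1.30) and 12La against 14La (-1.63), and for 8L against 16La without low-detection libraries (-2.52). With 1 bird left out, 8L against 16La ran from -2.52 to -1.69 and 12La against 14La from -1.58 to -0.94. For 8L, the ratio of replicate 6, with POU1F1 at 0, depends on the count added. The cause of the other shifts was not tested. POU1F1 changed sign with limma on the deposited CPM at 14 h (-1.58), at 12 h (0.57), for 12La against 14La (-1.41), 12Lv against 10Lv (0.95), 14Lv against 12Lv (-0.75) and in the slope (0.12), none called. At 14 h it ran from -0.25 to 0.36 with 1 bird left out. PRLR changed sign with limma at 14 h (-0.83), for 14La against 16La (1.81), 12La against 14La (-1.47) and in the difference of slopes (-0.19), and with summed counts at 12 h (2.26), for 14La against 16La (1.08), 12La against 14La (-1.80) and 12Lv against 10Lv (0.98). With 1 bird left out PRLR ran from -0.86 to 0.20 at 10 h, from -0.29 to 0.80 for 10La against 12La and from -0.15 to 0.057 in the difference of slopes.

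Of the other hormones, POMC changed sign for 16Lv against 8L with DESeq2-type scaling (0.44) and the covariate (0.42), for 16Lv against 16La with these (0.54 and 0.67), library totals alone (0.45) and a minimum count of 10 (0.42), and with limma for 16Lv against 14Lv (-0.32) and in the difference of slopes (-0.082). FSHB did so for 16Lv against 16La with summed counts (0.45), and CGA ran from -0.72 to 0.096 for 14Lv against 12Lv with 1 bird left out. The settings tested different numbers of genes, so counts of genes called are given with the number tested. Genes called among photoperiods numbered 19 of 1460, and 4 of 826 with summed counts to 52 of 14579 without a filter. For 8L against 16La they numbered 7 of 1460, and 3 of 3182 with limma. For the slope they numbered 10 of 1460, and 5 of 210 with a minimum count of 10. At 12 h they numbered 7 of 1460, and 2 of 3182 with limma. For 12La against 14La they numbered 7 of 1460, and 2 of 3182 with limma. That comparison had 13 of 2060 without low-detection libraries and 15 of 1460 with the block. For 16Lv against 8L they numbered 3 of 1460, and 9 of 1460 with the block.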
